A study of Mus musculus with 6 samples.

Results

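The 9 genes described here encode adhesion molecules of the neuronal surface. They are 7 members of the immunoglobulin superfamily, Ncam1, Ncam2, L1cam, Nrcam, Chl1, Nfasc and Cntn1, and 2 neurexins, Nrxn2 and Nrxn3. The array files carry a transcript accession for each probe and no gene name, so a probe was assigned to a gene by matching that accession to RefSeq. This gave 23 probes for the 9 genes, of 41174 probes on the array; 20 of the 23, covering 8 of the 9 genes, passed the filter on dim signals, and the 2 Nrxn3 probes and 1 Ncam2 probe did not.

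RNA came from 6 primary lines grown from lung tumours of C57BL/6J mice that were Rb1L/L and Trp53L/L, a mouse model of small cell lung carcinoma. The 3 lines of one group are labelled non-SMC and the 3 of the other SMC, an abbreviation that the labels do not spell out, and both groups share the Rb1 and Trp53 alleles. All were cultured in RPMI medium with serum. The sources used here give neither the way the alleles were deleted nor the age of the mice. The lines form 3 pairs of 1 non-SMC and 1 SMC line, labelled female for pairs 1 and 3 and male for pair 2, and each line was measured once, so replicate 1, 2 or 3 of a group is its line of pair 1, 2 or 3.

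Immunoglobulin-type adhesion molecules bind like or unlike partners on neighbouring cells through their outer domains. The neural cell adhesion molecules and the L1 family (L1cam, Nrcam, Chl1 and Nfasc) cross the membrane, and the L1 family binds ankyrins, which tie the surface to the spectrin skeleton; contactins such as Cntn1 are held by a lipid anchor. Neurexins sit on the presynaptic side and bind neuroligins and other partners across the synapse. In the lung, NCAM1 is a surface marker of neuroendocrine cells and of small cell carcinoma.

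Values are log2 signals of a probe relative to the 75th percentile of its array. A difference is the SMC value minus the non-SMC value. Signals of different probes depend on the probe, so levels are compared between lines and never between genes. On each array 64.1% to 68.5% of the probes were well above background and no spot was saturated; 19847 features were tested, a feature being a gene by its brightest kept probe or an unnamed probe. The Rb1 and Trp53 probes were well above background on all 6 arrays, but their position in the genes is unknown here, so they do not check the deletion. In bulk RNA, fewer cells of a type and less RNA per cell cannot be told apart.

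One line stood apart from its group in the neuroendocrine markers. The summed level of 13 such markers (Chga, Syp and others) was 7.27 in non-SMC replicate 2, against 2.02 and 3.06 in non-SMC replicates 1 and 3 and 8.20 to 8.64 in the SMC lines. Some results are given below with and without this line. The slides divided the pairs unevenly, though not the groups. A slide was shared by 4 arrays (SMC replicates 1 and 2, non-SMC replicates 2 and 3), while SMC replicate 3 and non-SMC replicate 1 had separate slides. Both lines of pair 2 thus lay on 1 slide, whereas pairs 1 and 3 each spanned 2 slides. Pair 2 was also the only pair labelled male. Within its difference, the lines, the sex and the shared slide cannot be told apart. Non-SMC replicate 3, with the marker sum of 3.06, lay on that slide too, and the part of the slide was not tested.

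The mean level of each of the 8 tested genes lay higher in the SMC lines, by 1.55 to 7.04 on the log2 scale for 7 of them and by 0.32 for Ncam1. In the paired limma fit over all features, 1 of the 8 tested genes, Ncam2, passed as higher at an adjusted p under 0.05, and none passed as lower. Of all features tested, 0.156% passed as higher and 3.03% as lower. At an unadjusted p under 0.05, 6 of the 8 were higher, against 14.9% of all features. Differences were positive for 58.3% of all features, and the median was 4.24 for the 8 genes, against 0.18. For 5 of the 8, every SMC line lay above every non-SMC line, against 22.8% of all features. These counts are a description: 4 of the 8 (Ncam2, Nrcam, Chl1 and Cntn1) were kept only because all SMC arrays measured them, which favours a positive difference, and the other 4 were well above background on every array.

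**Figure D1:**
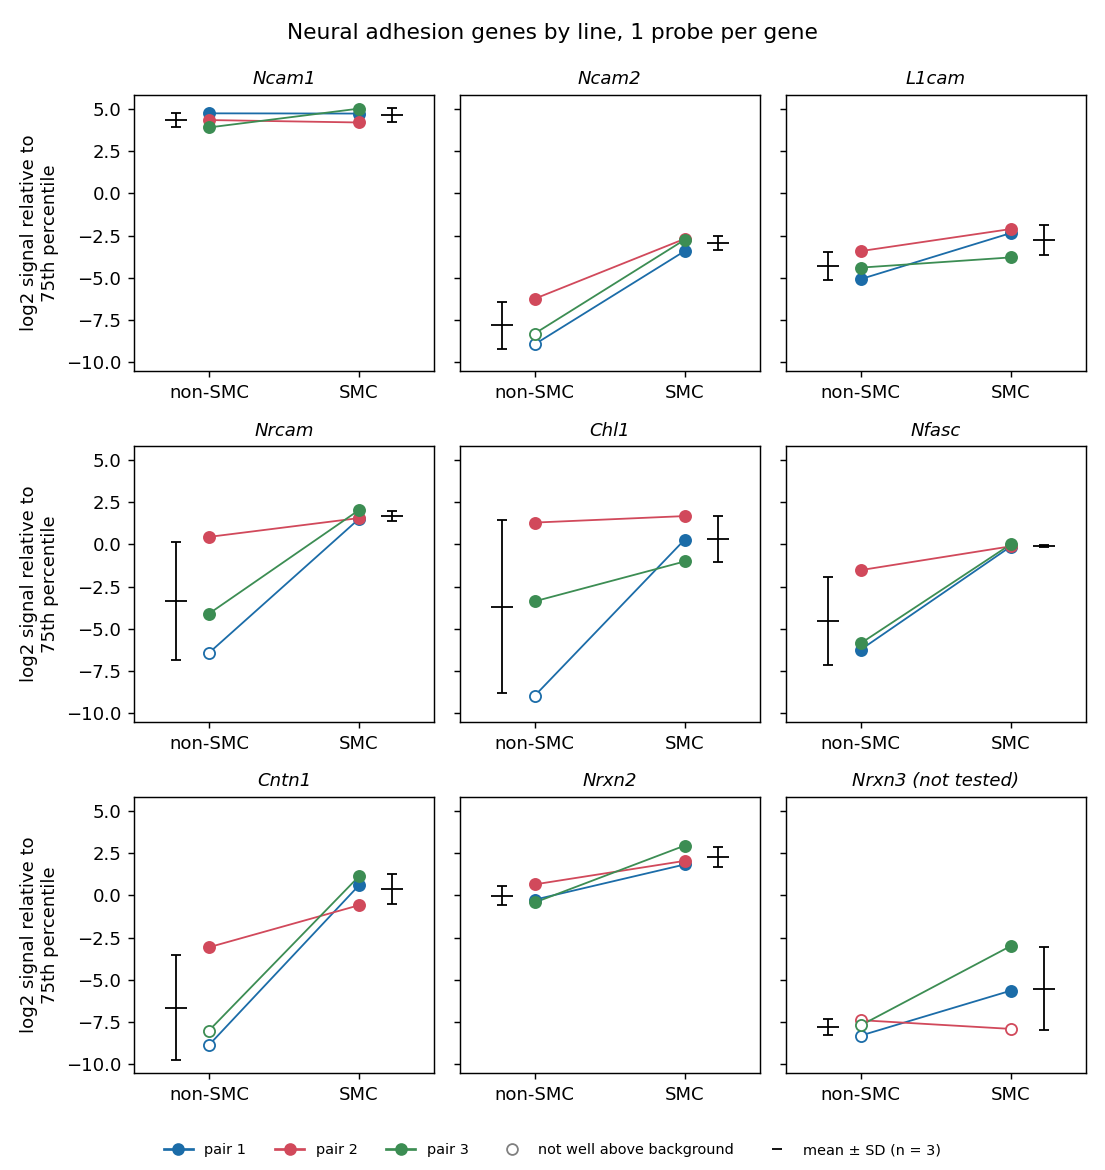
Log2 signal of 1 probe per gene in each line, relative to the 75th percentile of the array (vertical axis), in the non-SMC and SMC groups; lines join the members of a pair, open circles are signals not well above background, and bars are mean ± SD (n = 3). Ncam1 lies between 3.92 and 5.04 in all lines, while Nrcam, Nfasc and Cntn1 lie low in non-SMC replicates 1 and 3, higher in non-SMC replicate 2 and highest in the SMC lines. Heights of different genes are not comparable.

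Ncam1 encodes the founding neural cell adhesion molecule and was read by 6 probes, all well above background in all 6 lines. Its brightest probe, A_52_P613255, gave 4.76, 4.36 and 3.92 in the non-SMC lines of pairs 1 to 3 and 4.74, 4.21 and 5.04 in their SMC partners. The groups overlapped, and no change passed the test (0.32 ± 0.39, limma SE, 3 pairs, limma adjusted p = 0.634). The difference was positive only in pair 3 (1.12, against -0.01 and -0.14 in pairs 1 and 2), and its sign turned without pair 3 (-0.08) and with the mean of the 6 probes (-0.15). That mean includes A_52_P382754, the only Ncam1 probe with a negative difference (-3.59).

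Of the 6 Ncam1 probes, 1 ran against the others. Probe A_52_P382754 gave 2.81, -0.27 and 0.09 in the non-SMC lines, against -2.85, -3.09 and -2.18 in the SMC lines. All SMC lines thus lay below all non-SMC lines, as was the case for 16% of all kept probes. When every kept probe was fitted as its own feature, the difference was -3.59 ± 0.78 (limma adjusted p = 0.104), which did not pass, against 3.21% of all probes that passed as lower. This probe was followed across settings after its values were seen, so its calls there are a description. It passed in 3 of 20 settings, the main fit included. These were the shared slide alone (-2.89, limma adjusted p = 0.0309), and the fits without the pair that left out non-SMC replicate 1 or 2 (-2.62 and -4.16, adjusted p = 0.0305 and 0.0386).

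The remaining 5 Ncam1 probes differed by 0.32 to 0.78, and the groups overlapped for each. Probe A_52_P382754 carries the accession NM_010875, as do A_52_P684037 (-0.80, -2.39 and -2.72 in the non-SMC lines and -1.25, -1.92 and -0.99 in the SMC lines) and A_52_P291924, so the disagreement lies within probes of 1 accession. Ncam1 is known to yield membrane-spanning and lipid-anchored isoforms through alternative splicing; which isoform each probe reads was not examined, since probe positions and sequences were not used here. The log2 ratio of A_52_P382754 to the brightest probe was -1.95, -4.62 and -3.82 in the non-SMC lines and -7.59, -7.30 and -7.22 in the SMC lines. Its group means were -3.46 ± 1.37 and -7.37 ± 0.20 (SD, n = 3). The ratio was chosen after the values of the probes were seen, so it is given with no test.

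**Figure D2:**
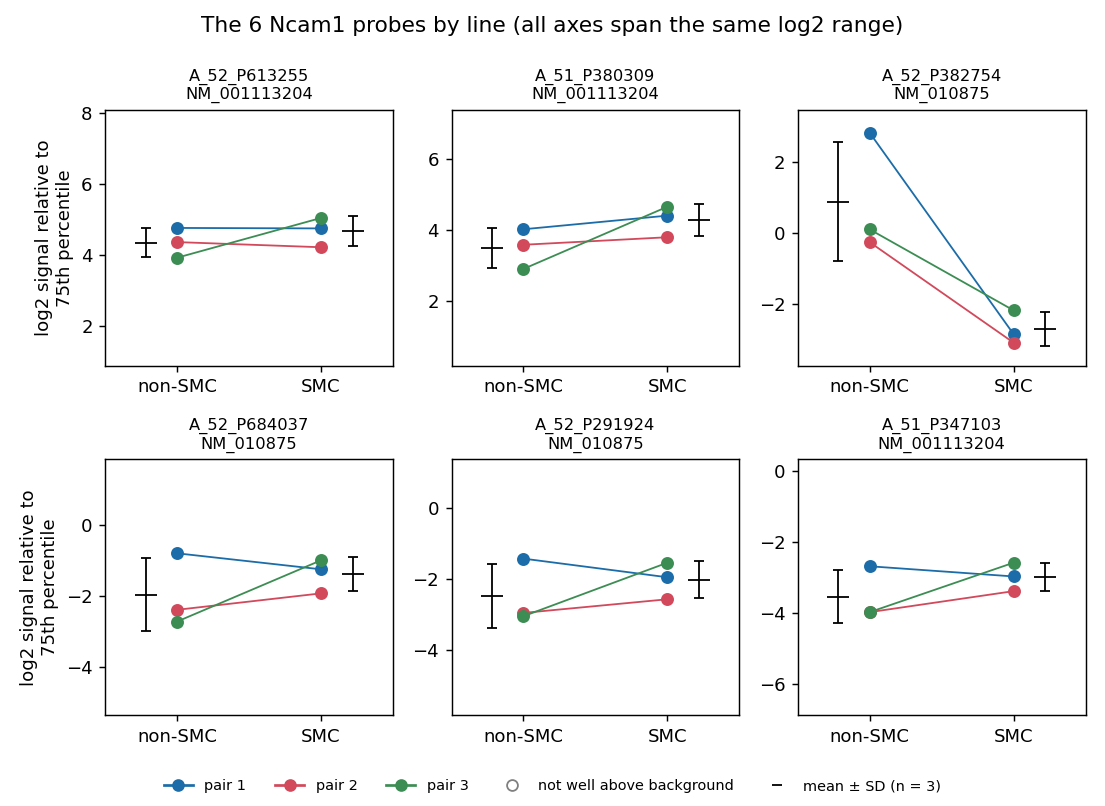
The 6 Ncam1 probes, each with its accession, by line: log2 signal relative to the 75th percentile of the array, all vertical axes spanning the same log2 range, lines joining pairs, bars showing mean ± SD (n = 3). A_52_P382754 lies between -0.27 and 2.81 in the non-SMC lines and between -3.09 and -2.18 in the SMC lines, whereas the groups overlap on the other 5 probes.

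Ncam2, the paralogue of Ncam1 known from olfactory neurons, was the only tested gene of the set that passed. Probe A_52_P610188 gave -3.42, -2.69 and -2.75 in the SMC lines of pairs 1 to 3. Their non-SMC partners gave -8.95, -6.25 and -8.32, and only the line of pair 2 was well above background. The groups did not overlap, and the fitted difference was 4.89 ± 0.54 (limma SE, 3 pairs, limma adjusted p = 0.0341), or 29.6-fold, positive in 3 of 3 pairs. With signals not well above background set to the lowest measured signal of their array it was 3.38 and still passed (adjusted p = 0.0176). A second probe, A_52_P209119, gave -8.80, -5.69 and -8.03 in the non-SMC lines and -4.33, -3.31 and -3.83 in the SMC lines, a difference of 3.68 ± 0.53 (adjusted p = 0.0544). The third, A_52_P184368, was well above background in SMC replicate 2 alone, at -4.86, and was not tested.

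The call for Ncam2 was lost in the paired fit without pair 1 (4.56, adjusted p = 0.138) or without pair 3 (4.55, adjusted p = 0.151), and on the shared slide alone (4.23, adjusted p = 0.115). It held without pair 2 (5.55, adjusted p = 0.0313), the pair with the smallest difference. Without the pairing it was lost when non-SMC replicate 3 (4.65, adjusted p = 0.0881) or SMC replicate 1, 2 or 3 (adjusted p = 0.0605, 0.0671 and 0.0639) was left out. With no filter on dim probes its adjusted p was 0.0558, with the slide as a block 0.0816, and with normexp background correction the difference was 1.20 (adjusted p = 0.0713). Ncam2 was not among the 4 genes that could be tested when only probes well above background on all arrays were kept.

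The L1 family was read by 8 probes. L1cam, which guides axon growth, had 1 probe, well above background in every line. It gave -5.09, -3.43 and -4.40 in the non-SMC lines of pairs 1 to 3 and -2.36, -2.12 and -3.80 in their SMC partners. SMC replicate 3 lay below non-SMC replicate 2, so the groups overlapped, and the difference of 1.55 ± 0.52 did not pass (adjusted p = 0.169). Pairs 1 to 3 gave 2.73, 1.31 and 0.61, so the smallest difference lay in pair 3.

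Nrcam, which helps to cluster sodium channels at nodes of Ranvier, separated the non-SMC lines from each other more than the groups. Its brighter probe gave -6.44 in non-SMC replicate 1, not well above background, 0.45 in replicate 2 and -4.11 in replicate 3, against 1.52, 1.56 and 2.04 in the SMC lines. The 3 SMC lines thus agreed within an SD of 0.29, against 3.50 for the non-SMC lines, and the groups did not overlap. The difference was 5.07 ± 1.46 (adjusted p = 0.143), made of 7.96, 1.12 and 6.15 in pairs 1 to 3. The second probe gave 5.29, 1.05 and 5.65.

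Chl1, the close homologue of L1, had the widest spread among the non-SMC lines of the 8 tested genes (SD 5.15 by its brighter probe). This brighter probe was at -8.98 in non-SMC replicate 1, not well above background, at 1.30 in replicate 2 and at -3.38 in replicate 3, against 0.29, 1.68 and -1.01 in the SMC lines. Non-SMC replicate 2 lay above SMC replicates 1 and 3, so the groups overlapped, and the difference of 4.01 ± 1.91 did not pass (adjusted p = 0.263). Pair 1 gave 9.27, which rests on the dim signal, against 0.39 and 2.37 in pairs 2 and 3. With the dim signal at the lowest measured signal of its array the fitted difference was 3.25. The second probe had the same order of lines within the non-SMC group (-8.82, -1.95 and -5.66) and a difference of 3.07 ± 1.42.

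Nfasc, neurofascin, which organises the axon initial segment, was nearly the same in the 3 SMC lines, at -0.13, -0.11 and -0.0020 by its brightest probe. In the non-SMC lines it was -6.25, -1.53 and -5.88, all well above background, and the groups did not overlap. The difference of 4.47 ± 1.11 did not pass (adjusted p = 0.124), with 6.12, 1.41 and 5.88 in pairs 1 to 3. The other Nfasc probes differed by 1.99 ± 0.35 (A_51_P309347, adjusted p = 0.0794) and 3.27 ± 0.73 (A_52_P331829, adjusted p = 0.107). The first of these had a smaller spread among the non-SMC lines, at -4.58, -3.65 and -5.15, and pair differences of 1.60, 1.72 and 2.63, without the low value of pair 2 seen with the others.

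Cntn1, a contactin that joins axons to glia and partners L1-type molecules, had the largest fitted difference of the set. Its brighter probe was not well above background in non-SMC replicates 1 and 3 (-8.88 and -8.02) and lay at -3.08 in replicate 2, against 0.60, -0.58 and 1.13 in the SMC lines. The groups did not overlap, and the difference of 7.04 ± 1.62 did not pass (adjusted p = 0.115); it passed with median scaling (6.96, adjusted p = 0.0491). The pairs gave 9.48, 2.49 and 9.15, and with dim signals at the lowest measured signal of their array the difference was 5.66. The second probe, of another accession, gave -7.50, -3.92 and -6.93 in the non-SMC lines and -0.31, -1.34 and 0.27 in the SMC lines.

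**Figure D3:**
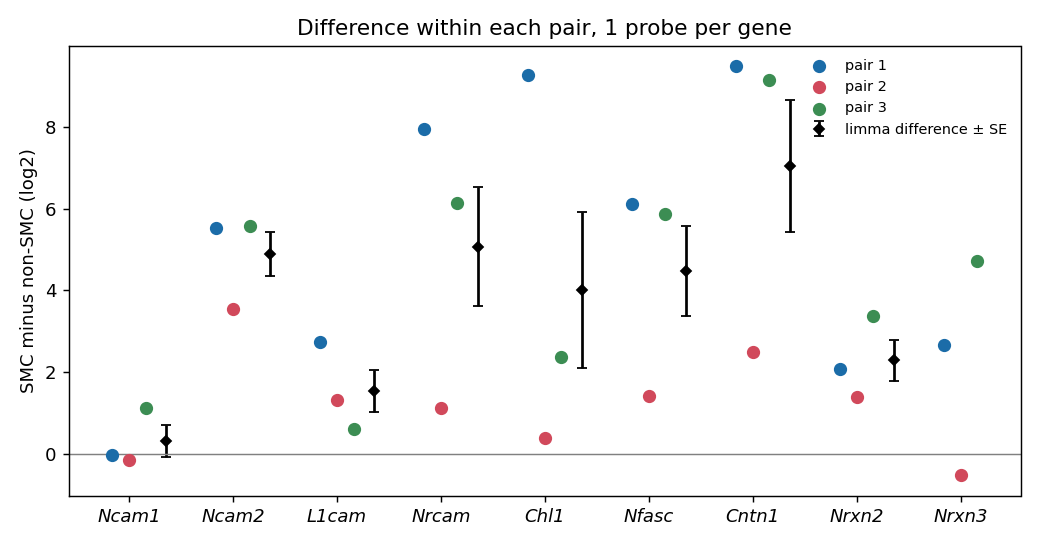
SMC minus non-SMC difference (log2, vertical axis) within each of the 3 pairs for 1 probe per gene, with the limma difference ± SE beside them for the 8 tested genes. Pair 2 lies lowest for each of the 9 genes except L1cam, and the pairs of Ncam1 fall on both sides of 0.

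Of the neurexins, Nrxn2 was well above background in every line, at -0.25, 0.66 and -0.42 in the non-SMC lines of pairs 1 to 3 and 1.84, 2.05 and 2.96 in their SMC partners by its brighter probe. The groups did not overlap, and the difference of 2.29 ± 0.49 did not pass in the paired fit (adjusted p = 0.109) and passed without the pairing (adjusted p = 0.042). The second probe, of the same accession, spread far more among the non-SMC lines, at -5.28, 0.14 and -2.09, with 1.45, 1.86 and 2.74 in the SMC lines and a difference of 4.43 ± 1.05 (adjusted p = 0.114).

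Nrxn3 was well above background in no non-SMC line. Its brighter probe, A_52_P39644, was measured in SMC replicates 1 and 3, at -5.66 and -3.01, and not in SMC replicate 2, at -7.92, among the non-SMC values of -8.32, -7.40 and -7.72. It was therefore not tested. The SMC mean was 1.77-fold higher than the lowest measurable signal in the non-SMC lines. As this mean includes the dim signal of SMC replicate 2, the fold is no strict bound. The second probe was well above background in SMC replicate 3 alone, at -4.55.

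Taking the 14 kept probes of the genes other than Ncam1, all had a positive difference in each of the 3 pairs, and for 11 all SMC lines lay above all non-SMC lines, which was so for 22.6% of all kept probes. Of the 14, 9 were kept through the SMC arrays alone, which favours both counts; of the 5 probes well above background on every array, all were positive in each pair and 4 did not overlap. Of all kept probes 0.202% passed as higher, among them 1 of these 14. For 12 of the 14, pair 2 had the smallest difference; the median of the 8 tested genes was 5.83, 1.35 and 4.47 in pairs 1 to 3, against 0.06, 0.18 and 0.25 over all features.

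The counts moved with the lines included. Non-SMC replicate 2 had the highest non-SMC value of every tested gene but Ncam1. Leaving it out of the fit without pairing therefore raises those differences by construction. Pair 2 had the smallest difference of every tested gene but L1cam, so leaving out pair 2 also raises the differences of those genes by construction. Leaving out other lines lowered the count: 0 of the 8 genes passed without pair 1, and 0 without pair 3. Without pair 2, limma called 4 of the 8 genes as higher, Ncam2, Nrcam (7.05, adjusted p = 0.033), Nfasc (6.00, adjusted p = 0.0306) and Cntn1 (9.32, adjusted p = 0.0306), with 2.64% of all features called as higher. With only non-SMC replicate 2 left out and no pairing, 5 passed, these 4 and Nrxn2 (2.62, adjusted p = 0.024), and 7.86% of all features did; Chl1, L1cam and Ncam1 did not. With all 6 lines and no pairing, 2 passed, Ncam2 and Nrxn2, against 1.38% of all features. The neuroendocrine markers moved with these genes: all 13 had a positive difference (median 5.16), against 58.3% of all features. None passed and 12 were higher at an unadjusted p under 0.05, against 14.9% of all features, and their part in the result was not tested. On the shared slide, where both lines of pair 2 lay, the differences were 3.37 for Nrcam, 3.58 for Nfasc, 5.56 for Cntn1, 1.83 for Nrxn2, 2.03 for Chl1 and 1.68 for L1cam. There limma called none of the 8 genes, and 4 were higher at an unadjusted p under 0.05, against 2093 of the 19847 features.

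**Figure D4:**
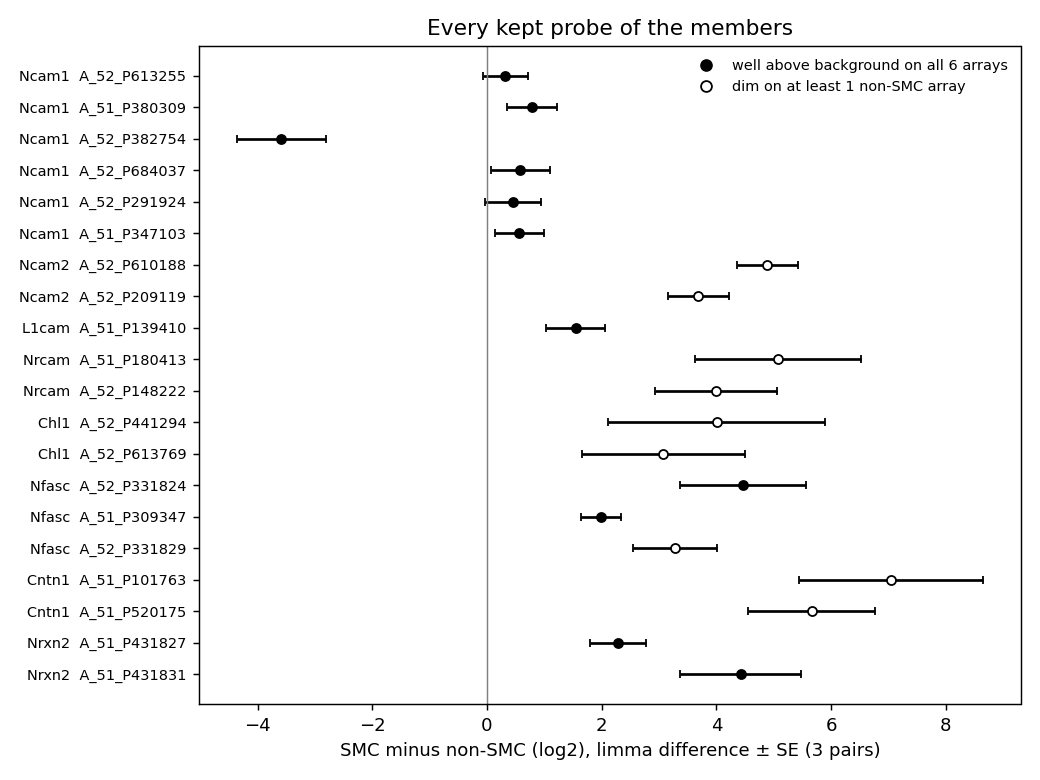
SMC minus non-SMC difference (log2, horizontal axis) with its SE for each of the 20 kept probes of the 8 tested genes, from the limma fit on every kept probe; filled circles mark the 11 probes well above background on all 6 arrays. All lie to the right of 0 except the Ncam1 probe A_52_P382754 at -3.59.

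Promoter sequence shows whether genes with alike patterns also look alike upstream. RefSeq's table (GRCm38.p6) held 7 of the 9 genes, with 13 start sites; Ncam1 and Nrxn2 were not among them. The 250 bases before the most upstream listed start are printed for Ncam2, the gene that passed, and for Nrcam, Nfasc and Cntn1, which passed without pair 2, in lower case with each CpG in capitals. They come from chr16:81200447-81200696 (plus strand), chr12:44328635-44328884 (plus strand), chr1:132707327-132707576 (minus strand) and chr15:92050915-92051164 (plus strand), a build other than the mm9 named in the array headers, and run 5′ to 3′ along the gene.
Ncam2: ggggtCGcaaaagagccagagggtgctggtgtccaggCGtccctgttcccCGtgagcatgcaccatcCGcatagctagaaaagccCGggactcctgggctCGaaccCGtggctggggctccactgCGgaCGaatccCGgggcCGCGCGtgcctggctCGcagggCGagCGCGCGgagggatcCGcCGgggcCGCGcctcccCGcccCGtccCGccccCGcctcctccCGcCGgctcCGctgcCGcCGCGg
Nrcam: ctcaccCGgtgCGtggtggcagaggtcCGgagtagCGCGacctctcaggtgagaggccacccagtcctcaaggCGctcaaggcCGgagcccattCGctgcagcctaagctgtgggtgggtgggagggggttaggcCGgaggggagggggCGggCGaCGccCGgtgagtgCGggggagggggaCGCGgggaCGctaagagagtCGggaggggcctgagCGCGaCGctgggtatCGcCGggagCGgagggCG
Nfasc: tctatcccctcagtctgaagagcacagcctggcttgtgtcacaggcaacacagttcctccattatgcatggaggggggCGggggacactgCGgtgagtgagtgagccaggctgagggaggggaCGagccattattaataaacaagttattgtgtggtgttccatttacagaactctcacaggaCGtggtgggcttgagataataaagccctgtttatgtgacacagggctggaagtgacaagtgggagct
Cntn1: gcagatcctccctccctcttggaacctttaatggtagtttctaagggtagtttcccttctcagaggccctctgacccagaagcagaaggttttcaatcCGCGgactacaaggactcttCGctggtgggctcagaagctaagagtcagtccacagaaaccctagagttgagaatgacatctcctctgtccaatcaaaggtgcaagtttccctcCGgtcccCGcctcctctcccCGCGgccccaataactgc

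The CpG content of the windows varied widely. Ncam2 had 32 CpGs and 75.2% GC, and 4.58% of the 32851 windows of this length in the table had as many CpGs. Nrcam had 25 CpGs and 72.4% GC. Nfasc and Cntn1 had 4 and 7, near the median of 6 over all windows. The general E-box CANNTG, the motif of basic helix-loop-helix factors, was found in 6 of the 13 windows of the set, against 66.2% of all windows. Its form CAGCTG, contained in that motif, was found in none of the 13, against 13% of all windows, and CAGATG, searched on both strands, in 2, both of L1cam, against 14.4%. These 2 windows share 206 bases and hold the same 1 CAGATG site, which also enters the CANNTG count in both. A match or its absence describes these letters only.

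Genes whose levels ran most like each member over the 6 arrays were named by Pearson's r, as a description, since the arrays fall into groups and share slides. Ncam1 was most like Cask (r = 0.982) and Ank2 (0.978), and 14 of 13313 named genes exceeded 0.95. Ncam2 was most like Cep83 and Pnn (0.998 and 0.995), L1cam like Cd24a and Smarca4 (0.994 and 0.993), and Chl1 like Sel1l3 and Arg2 (0.996 and 0.994). Nrcam was most like Pipox and Cux2 (both 0.999), with 501 genes over 0.95. For Nfasc, Phyhipl and Rundc3a led among 540 such genes, for Cntn1, Erich3 and Apba2 among 568, and for Nrxn2, Wasf1 and Maco1 among 301. Ncam2 had 433 such genes, L1cam 130 and Chl1 126, so high likeness was rarest for Ncam1. Some levels behind these values were not well above background. They were those of Ncam2 and Cntn1 in non-SMC replicates 1 and 3, and of Nrcam and Chl1 in replicate 1.

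Related genes were described from lists. For the list and marker counts below, the shares over all features were 58.3% positive and 14.9% higher at an unadjusted p under 0.05. At that threshold 2338 of the 19847 features were lower. Among 19 tested adhesion genes of the same superfamily, contactins and nectins included, limma called none and 16 differences were positive (median 1.48). At an unadjusted p under 0.05, 7 were higher and 1 lower. The largest were Igsf21 (5.62 ± 1.35, adjusted p = 0.12), a synaptic adhesion molecule, and Dscaml1 (4.75 ± 1.20, adjusted p = 0.126), which acts in neuronal self-avoidance. In the neurexin system, with neuroligins, cerebellins and contactin-associated proteins, none of 14 passed, 8 were higher at an unadjusted p under 0.05, 12 were positive and the median was 2.53. Cbln1, a secreted bridge between neurexins and postsynaptic receptors, was at -4.70, 1.43 and -4.53 in the non-SMC lines and 1.88, 3.34 and 2.11 in the SMC lines (difference 5.05 ± 1.13, adjusted p = 0.113).

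Cytoplasmic partners of these molecules lay on both sides. Of 24 tested, 1 was higher and 0 were lower at an adjusted p under 0.05, against 0.156% and 3.03% of all features. The other 23 did not pass, and the median was 0.46, against 0.18 over all features. At an unadjusted p under 0.05, 7 were higher and 2 lower. The 1 gene was Lin7a, a scaffold of the complex that binds neurexin tails through Cask, at -4.05, -2.78 and -5.69 in the non-SMC lines and 0.78, 0.59 and -0.28 in the SMC lines. The groups did not overlap, and the difference was 4.54 ± 0.51 (adjusted p = 0.0348). Cask itself lay between 2.25 and 3.11 in all lines.

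Of 19 tested extracellular partners, limma called 2 as lower, against 3.03% of all features, and none as higher, and 17 did not pass (median -2.43). At an unadjusted p under 0.05, 10 were lower and 1 higher. Tnc, the matrix protein tenascin C that binds contactins, gave 1.89, 0.60 and 1.36 in the non-SMC lines and was not well above background in any SMC line. It was at least 192-fold lower in SMC (adjusted p = 0.00848). Itga5, the fibronectin receptor subunit, gave 2.25, -0.03 and 1.69 in the non-SMC lines and was at least 194-fold lower (adjusted p = 0.0124). The summed level of the fibroblast markers moved with them, at 6.75 to 8.55 in the non-SMC and -0.94 to 1.33 in the SMC lines. Of 8 tested, 4 were lower: Col1a1, Col1a2, Col3a1 and Pdgfrb. Thy1 went the other way (0.91), and the groups overlapped for Thy1, Dcn and Pdgfra. What part these markers had was not tested.

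Of 10 tested enzymes that modify or cut such molecules, none passed, and at an unadjusted p under 0.05 2 were higher and 2 lower. The largest differences were -8.10 ± 1.64 for the membrane protease Mmp14 (adjusted p = 0.103) and 5.62 ± 1.65 for the sialyltransferase St8sia3 (adjusted p = 0.147). The enzymes known to add polysialic acid to NCAM1, named after their values were seen, were St8sia4, at -6.24, 0.24 and -1.19 in the non-SMC lines and 1.01, 1.34 and 2.89 in the SMC lines, and St8sia2, at -3.38, -4.62 and -6.59 against -5.43, -2.69 and -0.53. The groups did not overlap for St8sia4 (4.15 ± 1.28, adjusted p = 0.154) and overlapped for St8sia2.

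Splicing regulators known to act on neurexin and neural adhesion transcripts had a median difference of 3.29 over 14 tested genes, of which 13 were positive, none passed and 8 were higher at an unadjusted p under 0.05. The neuronal RNA-binding proteins Elavl3 and Elavl4 led with 6.02 ± 1.59 and 5.99 ± 1.64 (adjusted p = 0.131 and 0.136). Elavl3 was -5.34, 2.54 and -2.11 in the non-SMC lines and 4.11, 4.37 and 4.64 in the SMC lines. As with Nrcam, non-SMC replicate 2 lay between the other non-SMC lines and the SMC lines.

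Markers of further cell types that express such adhesion molecules were checked. Among Schwann cell and glial markers, 5 of 10 were tested, none passed, 1 was higher at an unadjusted p under 0.05, and the summed level was 1.97 to 3.57 in the non-SMC and 4.57 to 4.92 in the SMC lines, while Gfap and Olig1 were well above background in no line. Mbp alone carried this sum, at 1.91, 3.53 and 2.73 in the non-SMC lines and 4.90, 4.55 and 4.56 in the SMC lines (adjusted p = 0.124), and S100b differed by -0.11. For neuronal markers, 6 of 10 were tested, none passed and 2 were higher at an unadjusted p under 0.05, with sums of 0.91 to 2.34 and 2.69 to 4.98. Epithelial markers were low in non-SMC replicate 1 and SMC replicate 3 (sums 0.55 and 1.90, against 7.53 to 8.77 in the other lines). Leukocyte markers summed to 0.82 and 0.37 in the non-SMC and SMC lines of pair 3 and to between -3.28 and -2.55 in the rest. In SMC replicate 3 Lyz2 alone carried the sum, at 0.12. Tyrobp was at -5.10 there, and Adgre1 and Itgam were well above background in no SMC line. In non-SMC replicate 3 the highest were Tyrobp (-0.26), Lyz2 (-1.05) and Adgre1 (-2.29). Of the endothelial markers, Pecam1 and Cdh5 were well above background in no line, while Vwf was so in every line. The summed endothelial level ran from -3.65 to 3.58 in the non-SMC and from -1.66 to 4.39 in the SMC lines, with Vwf, at 3.57, 4.39 and 3.47, carrying it in non-SMC replicate 2 and SMC replicates 1 and 2. Kdr was well above background in the 3 non-SMC lines and 1 SMC line (-1.70 ± 0.61, adjusted p = 0.186). What part these markers had in the adhesion genes' values was not tested.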

How the data were processed

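Labelled RNA of 6 lines was hybridised to Agilent 1-colour arrays (design 014868, Feature Extraction 10.7.3.1 and build mm9 per the file headers). The deposited processed signal is an intensity that is background-subtracted within the array, per the file headers, and not normalized between arrays. The deposited series table holds log2 values, each column with a median of 5.06 and a correlation of 0.996 or more with its own array; how it was scaled is not stated. The sources used here give no further steps by the authors.

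Spots flagged as outliers and control spots were left out, spots of a probe averaged, and log2 of the signal taken minus the array's 75th percentile. Probes well above background on all arrays of a group were kept, and the brightest stood for its gene. By transcript accession, 27479 of 41174 probes matched RefSeq (GRCm38.p6). No genome coordinates of probes were used. The test was limma 3.58.1 (R 4.3.3; lmFit, eBayes) with pair and group, two-sided, Benjamini-Hochberg over all 19847 features, with 2 residual and 2.07 prior degrees of freedom; its p-values measure the spread between 3 pairs of lines, whose number limits the precision. The code was tested on simulated data.

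The labels and the series design pair the lines; how far each line departed from its group mean correlated at -0.01, 0.14 and 0.00 within pairs 1 to 3, against -0.15 to 0.13 between pairs. A fold given as "at least" takes the mean of the measured group over a floor in the unmeasured one: the lowest signal well above background on each array, or the probe's own signal if higher.

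Members, lists and alternatives were chosen with earlier results of these data known. Named were all members, per list up to 4 genes past the threshold with the largest difference (else the 2 with the largest), and the 2 genes most like each member among those detected on 3 or more arrays; 1 gene that the rule names is not reported here. Alternatives were other normalizations, background corrections, filters, probe rules, slide and pair settings, and left-out lines.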

Additional observations from a re-analysis of the deposited data

How the results depend on the processing

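Over the alternatives, the differences of Ncam2, L1cam, Nrcam, Chl1, Nfasc, Cntn1 and Nrxn2 stayed positive wherever the gene was tested. That of Ncam1 turned to -0.15 with the mean of its probes, which includes A_52_P382754, and to -0.079 without replicate 3. Its highest value was 0.55, without replicate 2. Ncam2 kept its call in 10 of 20 alternatives (range 1.20 to 5.68), and the cause of each loss was not tested. With all 6 lines, 31 features and 1 member were higher and 601 features lower. Median scaling gave 239, 2 and 973, and no replicate block gave 274, 2 and 975. Counts also moved with normexp (54 features and 0 members higher), no filter (7 and 0 higher, 383 lower), detection on all arrays (4 and 0 higher, 135 lower, with 4 members tested), every probe as a feature (54 higher), the slide as a block (9 and 0 higher) and the shared slide alone (20 and 0 higher). Leaving out non-SMC replicate 1, 2 or 3 or SMC replicate 2 with no replicate block gave 98, 1559, 17 and 80 features higher. No member was higher without non-SMC replicate 3 or any 1 of the SMC lines in that fit. Leaving out pair 2 gave 523 higher and 496 lower. All such settings together gave 0 to 1559 features higher, 0 to 1147 lower, 0 to 5 members higher and 0 members lower. Without pair 1, 0 features were higher and 209 lower; without pair 3 limma called none in either direction; before adjustment, 924 lay higher and 1743 lower with a p under 0.05. The median difference over all features was 0.18, and 0.08 with normexp. Dim signals in non-SMC replicate 1, and for Ncam2 and Cntn1 also replicate 3, limit the size of the differences of Ncam2, Nrcam, Chl1 and Cntn1, and Nrxn3 could be tested only without a filter.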
